A study of Mus musculus with 10 samples.

Results

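Arch dorsoventral patterning genes were examined as a group of 10 genes, namely the endothelin ligand Edn1 and its receptor Ednra, the distal-less genes Dlx1, Dlx2, Dlx5 and Dlx6, and the transcription factor genes Hand1, Hand2, Msx1 and Msx2. The members were taken by the gene symbol of the platform annotation, and every probe set with 1 of these symbols was used. Of the 10 genes, 9 had a probe set among the 20380 non-control probe sets with 1 symbol. They were read by 11 probe sets, 2 each for Hand1 and Msx1, while 0 probe sets carried the symbol Ednra, so the receptor was not analysed here. The data were 10 Affymetrix arrays of mouse tissue microdissected at stage E10.5 so as to hold the hindbrain and pharyngeal arches 1 to 4. Of these, 5 arrays were from Fbln1-null embryos, homozygous for a gene trap insertion in Fbln1, and 5 from wildtype embryos. Both came from matings of heterozygous carriers. Fbln1 encodes fibulin-1, a secreted matrix glycoprotein, and the series asked how it bears on signalling by the growth factor FGF8. The insertion is carried by all cells of the embryo and is not limited to the arches.

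The pharyngeal arches are swellings on the side of the embryonic head and neck that are filled by neural crest cells and later form jaw, ear and throat skeleton. Endothelin-1, secreted in the ventral arch, acts through its receptor on the crest cells and turns on Dlx5 and Dlx6, which in turn raise Hand2. Dlx1 and Dlx2 are expressed along most of the dorsoventral length of the arch mesenchyme, and this nested Dlx code gives upper and lower jaw their identity. BMP signals add Msx1, Msx2 and Hand1 at the ventral tip. Tissue of several kinds was pooled in each array, so fewer cells of a type and less RNA per cell cannot be told apart.

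Promoter sequences of 3 members are shown because Dlx1 and Dlx2 were the members with resolved signal and Hand2 is the factor at the ventral end of the pathway, which had none. RefSeq windows (GRCm38.p6) of 300 bases, 250 before and 50 after the gene start, were matched for 7 of the 10 members. The window of Dlx1 lies at chr2:71529195-71529494 on the plus strand, that of Dlx2 at chr2:71546705-71547004 on the minus strand and that of Hand2 at chr8:57320733-57321032 on the plus strand. Capitals mark CANNTG, the E-box core read by bHLH factors such as the Hand and Twist proteins, and TAATT or its reverse complement AATTA, a core read by homeodomain proteins such as the Dlx and Msx factors.
Dlx1: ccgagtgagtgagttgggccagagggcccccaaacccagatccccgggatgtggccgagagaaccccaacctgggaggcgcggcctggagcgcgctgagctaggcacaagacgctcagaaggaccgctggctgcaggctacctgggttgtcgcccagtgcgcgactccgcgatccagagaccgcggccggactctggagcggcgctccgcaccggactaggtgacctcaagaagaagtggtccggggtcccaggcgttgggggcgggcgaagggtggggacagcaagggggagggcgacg
Dlx2: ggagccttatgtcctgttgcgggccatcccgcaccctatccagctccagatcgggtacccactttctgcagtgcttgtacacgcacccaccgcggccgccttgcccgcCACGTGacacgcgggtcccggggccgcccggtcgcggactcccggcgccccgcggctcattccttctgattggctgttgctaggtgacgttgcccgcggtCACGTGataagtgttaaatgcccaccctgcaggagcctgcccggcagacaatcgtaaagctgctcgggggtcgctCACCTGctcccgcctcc
Hand2: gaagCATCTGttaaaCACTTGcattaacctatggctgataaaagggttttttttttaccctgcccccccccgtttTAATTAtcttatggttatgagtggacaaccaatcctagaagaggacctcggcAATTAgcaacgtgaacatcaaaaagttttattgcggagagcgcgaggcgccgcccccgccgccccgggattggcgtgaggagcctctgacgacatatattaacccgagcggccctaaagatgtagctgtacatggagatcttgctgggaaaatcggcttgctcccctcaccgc
Dlx1 and Dlx2 are neighbours with 0 protein-coding genes starting between them, as are Dlx5 and Dlx6. The Dlx1 window held 0 CANNTG matches and the Dlx2 window 3, of which 2 were CACGTG, a form singled out after the sequence was seen. CANNTG is in 72.3% of 32851 such windows and CACGTG in 7.15%. The homeodomain core was in 0 of these 2 Dlx windows and had 3 matches in the Hand2 window, where TAATTA counts on both strands and so holds overlapping matches. That core is in 27% of all windows. These matches describe letters in the windows.

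The genotype labels were checked on Fbln1. Its brighter probe set (1451119_a_at) read 2.52, 2.60, 2.62, 2.72 and 2.85 in Fbln1-null arrays, against 4.93, 5.11, 3.83, 4.47 and 4.40 in wildtype arrays on the log2 scale of the deposited values (replicates 3, 4, 5, 7 and 8 in null tissue and 1 to 5 in wildtype tissue, an order kept below). The groups did not overlap (two-sided exact permutation test, p = 0.00794, which is the minimum for this design). Neither Fbln1 probe set was kept by the expression filter described below. In the limma fit without a filter the brighter had a log2 fold change of -1.88 (limma adjusted p = 0.0715). The dimmer (1422540_at) had -1.12 (limma adjusted p = 0.303), so neither passed the adjusted threshold used below. Missing that threshold thus does not show that a gene is unchanged. Array medians were 3.20 to 3.29 in null and 3.23 to 3.28 in wildtype tissue. The precision of a difference rests on the number of arrays and on their spread within each genotype. One wildtype array, replicate 4, had Xist over Y-linked signal, and the other 9 had the reverse. Arch mesenchyme markers were over the expression filter for 6 of 10 genes (Lhx8, Prrx1, Prrx2, Tfap2a, Tfap2b and Twist1), while Alx4, Barx1, Lhx6 and Snai1 stayed under log2 4 on every array. Hindbrain markers were over it for 3 of 6 genes on the array (Hoxa2, Hoxb3 and Meis2), while Egr2, Hoxb1 and Hoxb2 stayed under log2 4 on every array.

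Of the 9 genes measured, only Dlx1 and Dlx2 gave signal over the expression filter, and neither differed between the genotypes beyond the spread of the arrays. The filter kept a probe set with a log2 value over 4 on at least 5 of the 10 arrays. It passed 9801 of 22626 probe sets, among them 2 of the 11 member probe sets, each over log2 4 on all 10 arrays. The other 9 member probe sets, for Edn1, Dlx5, Dlx6, Hand1, Hand2, Msx1 and Msx2, had 0 of 90 values over log2 4. By limma, 0 of the 2 kept member probe sets passed an adjusted p of 0.05, as did 0.0204% of all kept probe sets (2 of 9801). At an unadjusted p of 0.05 the count was 0 of 2, against 12.4% of all kept probe sets. The genotypes overlapped on the 2 kept member probe sets, against 2.77% of all kept probe sets on which they did not. The genotypes also overlapped on the other 9, and no share was computed over all probe sets without a filter. Beside so small a share, overlap on every member probe set says nothing about the members.

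**Figure D1:**
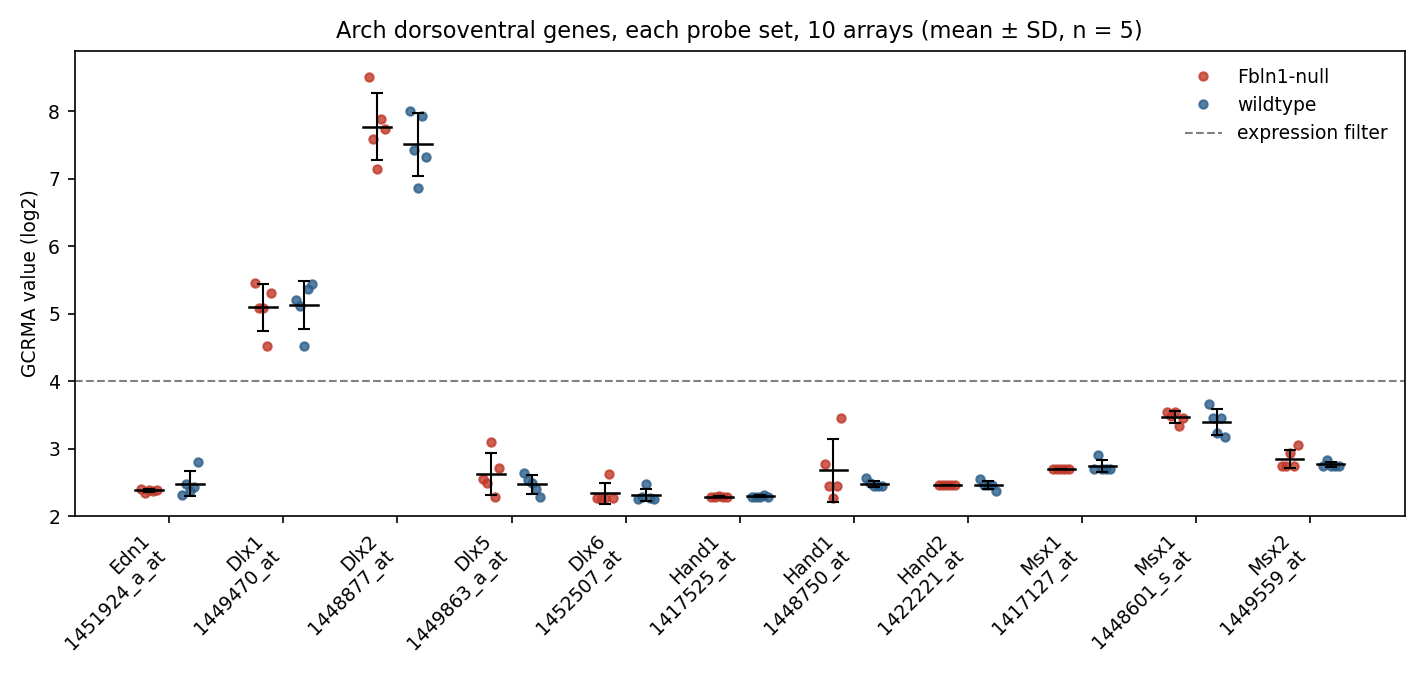
Log2 GCRMA value of each member probe set (vertical axis) on each array, Fbln1-null (red) left of wildtype (blue), with the mean and SD of 5 arrays per genotype. Dlx1 and Dlx2 lie over the dashed filter at log2 4 on every array, and the other 9 probe sets lie under it on every array.

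Edn1, the ligand that starts the ventral programme, read at the low end of the scale in both genotypes. Its probe set (1451924_a_at) had log2 values of 2.40, 2.35, 2.39, 2.38 and 2.39 in Fbln1-null arrays, against 2.32, 2.48, 2.38, 2.44 and 2.80 in wildtype arrays. The highest value, 2.80, was wildtype replicate 5, and the groups overlapped. The difference of the means was -0.10 with an SE of 0.08. The limma adjusted p over all 22626 probe sets, without a filter, was 0.780, and 0.00442% of them (1 of 22626) passed. At this level GCRMA pulls values to a floor, where a fall or a small change is not detectable. No array of either genotype read over log2 4.

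Dlx5 and Dlx6, the ventral pair of the Dlx code, were also dim. Dlx5 (1449863_a_at) read 2.55, 2.49, 3.10, 2.28 and 2.72 in Fbln1-null arrays, against 2.64, 2.54, 2.49, 2.41 and 2.28 in wildtype arrays. Null replicate 5 was the highest, each genotype had 1 array at 2.28, and the wildtype arrays covered a narrower range. Dlx6 (1452507_at) read 2.27, 2.26, 2.27, 2.62 and 2.27 in null arrays, against 2.26, 2.29, 2.47, 2.27 and 2.26 in wildtype arrays. On 7 of the 10 arrays Dlx6 was within 0.02 of its median of 2.27, and the exceptions were null replicate 7 and wildtype replicates 2 and 3.

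Hand1 and Hand2, bHLH factors of the ventral arch that are also used in the heart, stayed under log2 4 on every array. Hand2 (1422221_at) read 2.46 on all 5 null arrays, against 2.55, 2.46, 2.46, 2.46 and 2.37 in wildtype arrays, and 8 of 10 arrays were within 0.02 of the median. One Hand1 probe set (1417525_at) spanned 0.03 over all 10 arrays, from 2.29 to 2.32. The other (1448750_at) read 2.77, 2.45, 2.27, 2.45 and 3.46 in null arrays, against 2.56, 2.49, 2.45, 2.45 and 2.45 in wildtype arrays. Null replicate 8 was the highest and null replicate 5 the lowest, and the SD was 0.47 in null and 0.05 in wildtype tissue (n = 5 each). The 2 Hand1 probe sets thus differed in their range over the 10 arrays, 0.03 against 1.19. Among 11 heart markers, Actc1, Myl4 and Tbx20 were over the filter, and Gata4, Myh6, Myh7, Nkx2-5 and Nppa stayed under log2 4 on every array.

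Msx1 and Msx2, homeodomain repressors that respond to BMP signals, were under the filter on every array. One Msx1 probe set (1417127_at) read 2.70 on all 5 null arrays and on 4 wildtype arrays, against 2.91 on wildtype replicate 2. The other (1448601_s_at), of a type that can match transcripts of several genes, read 3.54, 3.48, 3.54, 3.33 and 3.45 in null arrays, against 3.67, 3.45, 3.23, 3.45 and 3.18 in wildtype arrays. The wildtype arrays held both the highest and the lowest value. Msx2 (1449559_at) read 2.75, 2.75, 2.94, 2.75 and 3.05 in null arrays, against 2.75, 2.84, 2.75, 2.75 and 2.75 in wildtype arrays, and 7 of 10 arrays were within 0.02 of its median of 2.75. Over the 9 dim probe sets the largest absolute difference between genotype means was 0.20. The limma adjusted p without a filter was 0.780 to 0.994, so 0 of 9 passed 0.05, against 0.00442% of all probe sets (1 of 22626). For values so near the floor, that count does not show that a gene is unchanged.

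Dlx2, a homeodomain factor that crest cells carry into the arches, was measured on every array. Its probe set (1448877_at) read 8.51, 7.59, 7.15, 7.89 and 7.74 in Fbln1-null arrays, against 8.00, 7.43, 6.86, 7.94 and 7.33 in wildtype arrays. Null replicate 3 was the highest, wildtype replicate 3 the lowest, and the other 8 arrays were interleaved. The mean was 7.78 ± 0.49 in null and 7.51 ± 0.47 in wildtype tissue (SD, n = 5 each), a log2 fold change of 0.27 (SE 0.26). The 95% interval ran from -0.30 to 0.84, or 0.810-fold to 1.78-fold (limma adjusted p = 0.730, two-sided exact permutation p = 0.421). Without null replicate 3 the difference was 0.08, and without wildtype replicate 3 it was 0.10.

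Dlx1, the neighbour and partner of Dlx2, had nearly the same mean in both genotypes. Its probe set (1449470_at) read 5.46, 5.09, 5.09, 4.53 and 5.31 in Fbln1-null arrays, against 5.20, 5.11, 4.53, 5.37 and 5.44 in wildtype arrays. Each genotype had 1 array at 4.53, namely null replicate 7 and wildtype replicate 3, with the other arrays between 5.09 and 5.46. The mean was 5.09 ± 0.35 in null and 5.13 ± 0.36 in wildtype tissue (SD, n = 5 each). The difference of the means was -0.04 (SE 0.20, 95% interval -0.48 to 0.41, 0.717-fold to 1.33-fold, limma adjusted p = 0.969, exact permutation p = 0.786). Its sign turned under scaling by the array median (0.01) or quantile normalization (0.03). Neither interval shows that the genotypes are alike, since each leaves room for a shift of over 1.3-fold.

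**Figure D2:**
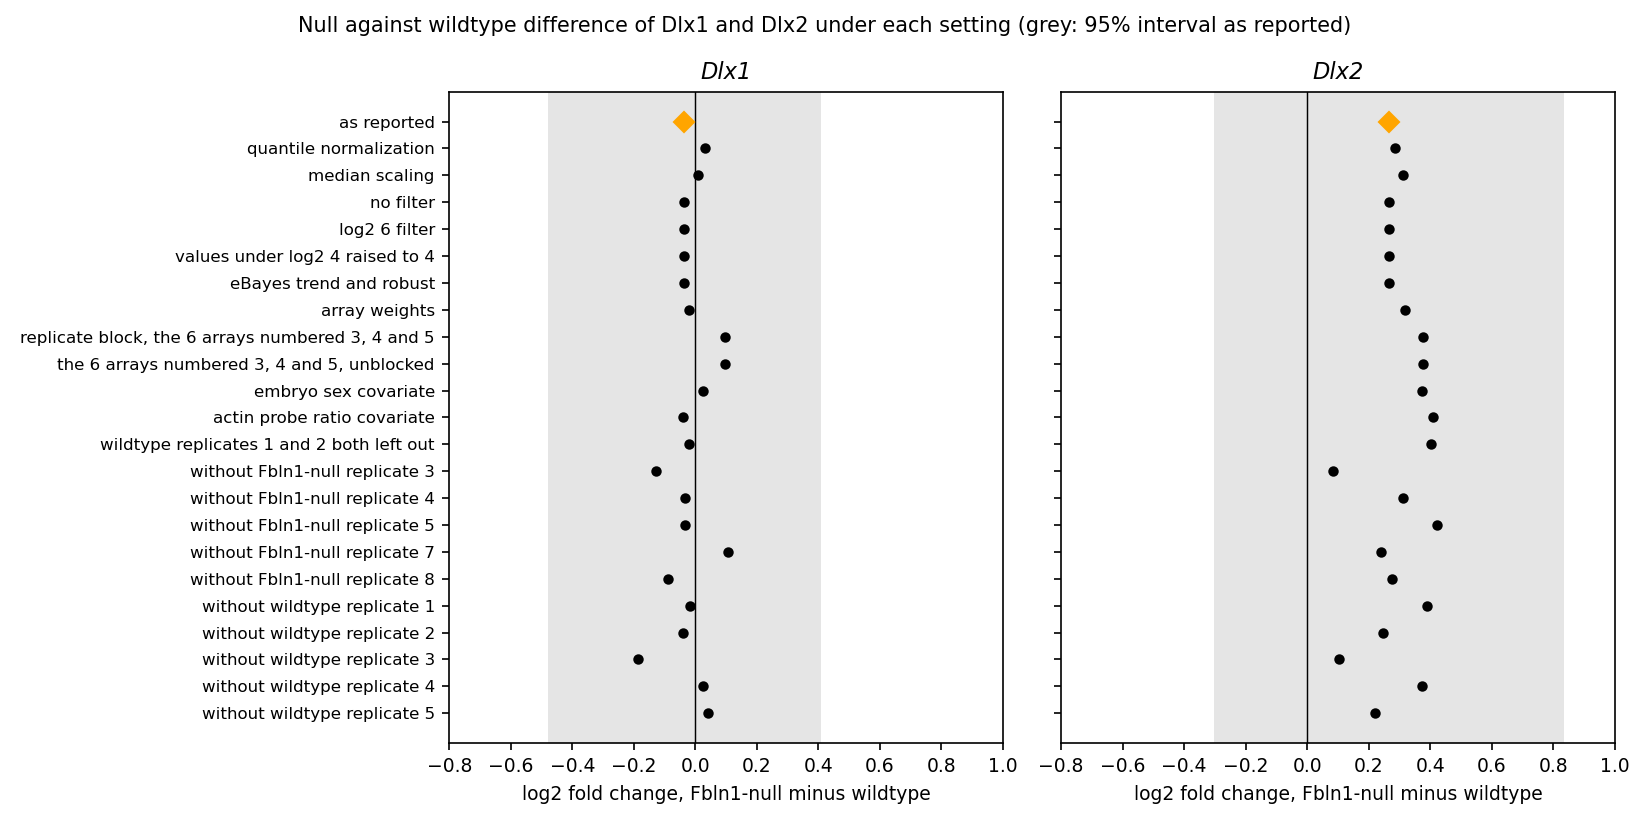
Log2 fold change of Dlx1 (left) and Dlx2 (right), Fbln1-null minus wildtype, as reported (orange diamond) and under each of 22 other settings (black points), with the reported 95% interval in grey. Dlx2 stays between 0.08 and 0.42 and Dlx1 between -0.19 and 0.11, all inside the grey bands. Settings that change only the filter, the floor or the variance model repeat the reported value.

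The Dlx2 probe set varied more between arrays of 1 genotype than most kept probe sets. Its within-genotype SD was 0.48, larger than that of 91.5% of kept probe sets, whose median SD was 0.27. Dlx1 had an SD of 0.36, larger than that of 74.5%. Taken as deviations from the genotype mean, wildtype replicate 3 was the low extreme for both genes (-0.65 for Dlx2 and -0.60 for Dlx1), and null replicate 3 was high for both (0.73 and 0.36). Null replicate 7 was low for Dlx1 (-0.57) and not for Dlx2 (0.11). Across the 10 arrays these deviations had a Pearson r of 0.49 (permutation p = 0.148) and a Spearman rho of 0.56 (permutation p = 0.0947), the 1 pair computed. Without the 2 arrays farthest from the Dlx1 median r was 0.55. Of 5911 other genes 9.12% had a higher r with Dlx2 than Dlx1 had.

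The genes whose array-to-array pattern was most like the Dlx genes came from outside the arch lists. For Dlx2, after the genotype means were taken out, these were Reck, a membrane inhibitor of matrix metalloproteases (r = 0.92 over 10 arrays), Gfm1, a mitochondrial elongation factor (0.87), and Pomgnt1, a glycosyltransferase of dystroglycan (0.87). For Dlx1 they were Timm22, a subunit of the mitochondrial inner membrane translocase (0.95), Dym (0.95) and Nomo1 (0.93). The probe sets of Gfm1 and Nomo1 are of a type that can match several genes. With 10 arrays and 5911 genes high values of r are common, and 10 genes exceeded 0.9 for Dlx1 and 1 gene did for Dlx2.

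Members of the group are also expressed outside the arches, Dlx1 and Dlx2 in the ventral forebrain, Dlx5 and Dlx6 in otic and limb ectoderm, Msx1 and Msx2 in the neural roof plate and Edn1 in endothelium, so markers of those tissues were read on the same arrays. All 5 forebrain markers on the array (Gsx2, Lhx2, Nkx2-1, Rax and Six3) stayed under log2 4 on every array. Of 6 otic markers 1, Gata3, was over the filter, and of 7 limb bud markers 1, Tbx5. Of 5 roof plate markers on the array Zic1 was over it, while Lmx1a, Rspo1, Wnt1 and Wnt3a stayed under log2 4 on every array. Of 8 endothelial markers Emcn, Kdr and Tek were over it, and Cdh5, Cldn5, Esam, Pecam1 and Tie1 stayed under log2 4 on every array. The summed level of the 10 arch mesenchyme markers, in linear units, was 1707 to 2511 in null and 1697 to 2371 in wildtype arrays. That of the 6 hindbrain markers was 533 to 662 in null and 665 to 820 in wildtype arrays, without overlap, a linear sum in which bright markers weigh most. Of single genes over the filter 2.88% do not overlap, and no such share was computed for sums. Egr2, Hoxb1 and Hoxb2, which are among the 6, stayed under log2 4 on every array. The mean log2 value of the 3 over the filter did overlap, at 5.95 to 6.34 in null and 6.07 to 6.39 in wildtype arrays. Of these 3, Meis2, a Hox cofactor, differed by -0.28 on the log2 scale (SE 0.12), Hoxa2 by -0.22 (SE 0.18) and Hoxb3 by 0.22 (SE 0.13), with limma adjusted p of 0.343, 0.661 and 0.545. Of the 6 arch mesenchyme markers over the filter 4 had a higher and 2 a lower null mean, against 43.1% higher among all genes. Their median log2 fold change was 0.22, against -0.04 for all genes. By limma 0 of them passed an adjusted p of 0.05, against 0.0338% of all genes. The part of arch mesenchyme or hindbrain content in the Dlx values was not tested. The log2 difference between the 3' and 5' actin probe sets, a sign of RNA integrity, was 2.19 to 2.85 in null and 2.0 to 2.38 in wildtype arrays. That of the Gapdh probe sets leaned the other way, at 1.54 to 1.98 in null and 1.68 to 2.32 in wildtype arrays. With the actin value as a covariate the genotype difference was 0.41 for Dlx2 and -0.04 for Dlx1, and 0 members passed.

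Beyond the members, 0 of the 29 measurable genes of a wider dorsoventral list changed past the adjusted threshold. The list held 55 genes, of which 52 were on the array and 29 over the filter, each read by its brightest kept probe set. By limma 0 passed an adjusted p of 0.05, against 0.0338% of all 5912 genes over the filter. At an unadjusted p of 0.05 stood 4 of 29 genes, 1 higher and 3 lower, against 12.8% of all genes. Lower null means were found for 17 of 29, against 56.9% of all genes, and the median log2 fold change was -0.03, against -0.04 for all genes. Among the 23 genes under the filter were further arch patterning factors, including Gsc, Barx1, Lhx6, Alx4, Pou3f3, Jag1 and Nog.

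**Figure D3:**
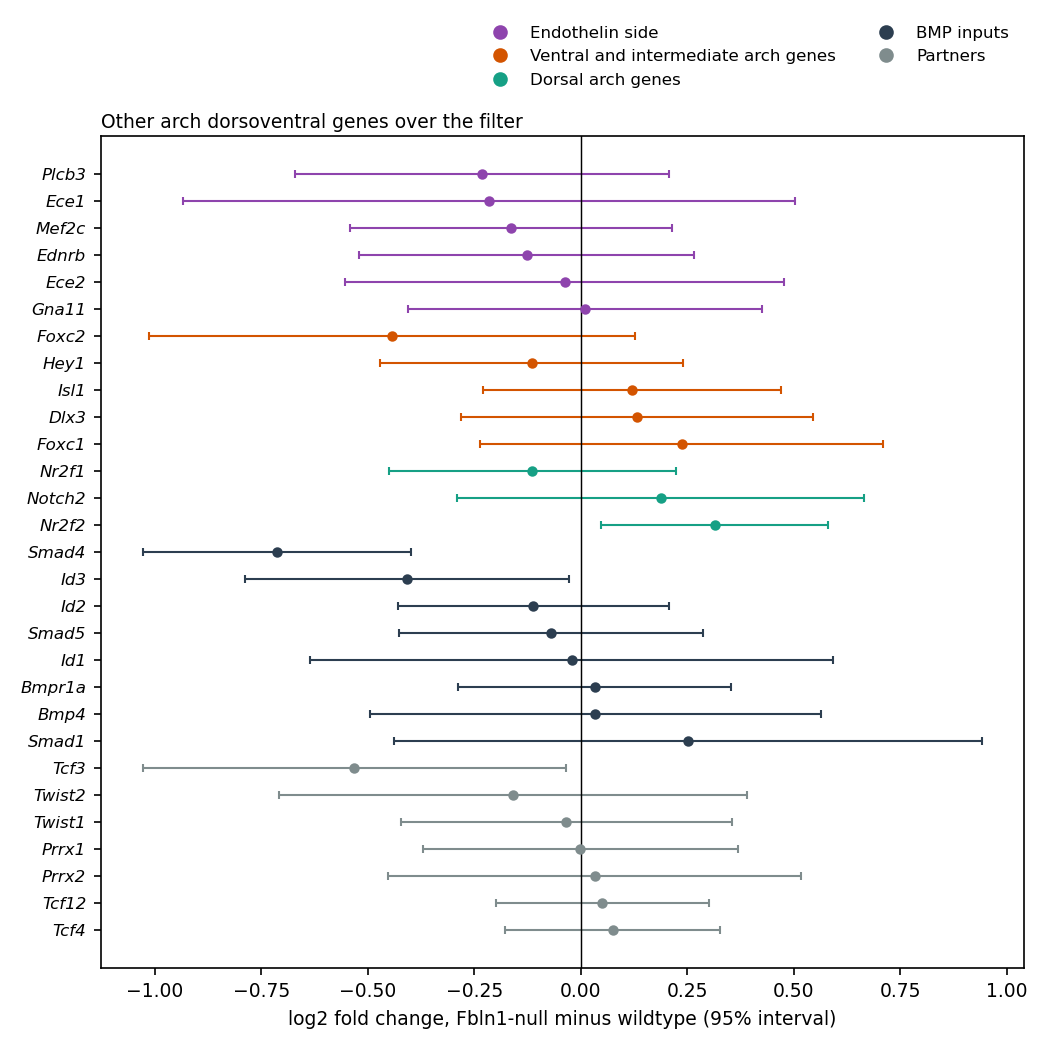
Log2 fold change, Fbln1-null minus wildtype, with its 95% interval, for the 29 listed genes over the filter, coloured by role. The interval of Smad4 lies from -1.03 to -0.40, and those of Id3, Tcf3 and Nr2f2 also leave out 0 before adjustment.

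Genes on the endothelin side showed no called change. Of 6 genes over the filter 5 had a lower null mean, against 56.9% of all genes. The median log2 fold change of the 6 was -0.15, against -0.04 for all genes. Of the 6, 0 passed (limma adjusted p 0.693 to 0.991), against 0.0338% of all genes. Plcb3, a phospholipase that couples Gq to calcium release, had 6.59 ± 0.43 in null and 6.82 ± 0.25 in wildtype tissue (SD, n = 5 each), a log2 fold change of -0.23 (SE 0.20). Mef2c, a transcription factor that relays endothelin signals to Dlx5 and Dlx6, had -0.16 (SE 0.17), and its dimmer probe sets had 0.03, 0.002 and -0.11. Ece1, the protease that matures endothelin-1, had -0.21 (SE 0.33), and Ednrb, the other endothelin receptor, had -0.13 (SE 0.18). Edn2, Edn3, Gnaq and Plcb4 were under the filter.

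Ventral, intermediate and dorsal arch factors over the filter showed no called change. In the ventral and intermediate list 3 of 5 genes had higher and 2 lower null means. Foxc2, a forkhead factor of arch mesenchyme and vessels, had -0.44 (SE 0.26) and its relative Foxc1 0.24 (SE 0.22), but the dimmer Foxc1 probe set went the other way at -0.44 (SE 0.21). Dlx3, a Dlx gene of the ventral arch and ectoderm, had 4.10 ± 0.15 in null and 3.97 ± 0.44 in wildtype tissue (SD, n = 5 each). In the dorsal list Nr2f2, a nuclear receptor, spanned 9.73 to 10.06 in null arrays (9.93 ± 0.13, SD, n = 5), against 9.39 to 9.76 in wildtype arrays (9.61 ± 0.17, n = 5). Null replicate 5 lay under 2 wildtype arrays, so the groups overlapped (difference 0.31, SE 0.12, limma adjusted p = 0.336), and its dimmer probe sets had 0.24 and 0.05. Notch2, a receptor of the dorsal Jagged-Notch signal, had 0.19 (SE 0.22).

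Smad4, the shared partner of the BMP and TGF-beta receptor-activated Smads, had the smallest p of the list. Its brightest probe set (1422486_a_at) read 8.74, 8.48, 8.96, 8.49 and 9.0 in Fbln1-null arrays, against 9.51, 9.54, 9.22, 9.66 and 9.31 in wildtype arrays. Every null array lay under every wildtype array. Smad4 was the 1 gene of 29 whose groups did not overlap in either direction, against 2.88% of all genes. The log2 fold change was -0.71 (SE 0.14, 95% interval -1.03 to -0.40), with a limma adjusted p of 0.0822, which misses the threshold. The next probe set (1422487_at) had -0.43 (SE 0.18, limma adjusted p = 0.370) with overlapping groups, and the dimmest (1422485_at) had -0.08 (SE 0.18). With a filter at log2 6 the adjusted p of the brightest was 0.0463 and with array weights 0.0388. Over all 22 alternatives it was 0.0388 to 0.293, and with the actin covariate 0.179 at a log2 fold change of -0.71.

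Other BMP genes did not pass either, and some gave different values on different probe sets. Smad5, a BMP-activated Smad, had -0.07 (SE 0.16) on its brightest probe set and -0.74 (SE 0.27, limma adjusted p = 0.306) on the other (1421047_at). Id3, a helix-loop-helix inhibitor that BMP signals induce, read 6.07, 5.55, 5.76, 5.62 and 6.09 in null arrays, against 6.55, 6.39, 5.70, 6.13 and 6.35 in wildtype arrays. Wildtype replicate 3 fell among the null arrays (difference -0.41, SE 0.18, limma adjusted p = 0.370). Id1 and Id2, of the same family, had -0.02 and -0.11, with 0.32 on the other Id2 probe set. Bmp4, the ligand of the ventral arch, had 0.03 (SE 0.24) and Smad1, like Smad5 activated by BMP receptors, 0.25 (SE 0.32). Bmpr1a, a BMP receptor, had 0.03 (SE 0.15), 0.07 and 0.06 on 3 probe sets and -0.67 (SE 0.30, limma adjusted p = 0.381) on another (1425494_s_at), of a type that can match several genes. Among the bHLH partners of the Hand proteins, Tcf3 had -0.53 (SE 0.23, limma adjusted p = 0.371), and its dimmer probe set had -0.01 (SE 0.11). Tcf12 had 0.05, with -0.35 (SE 0.20) on its dimmer probe set, Tcf4 had 0.08 and Twist1 -0.03.

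**Figure D4:**
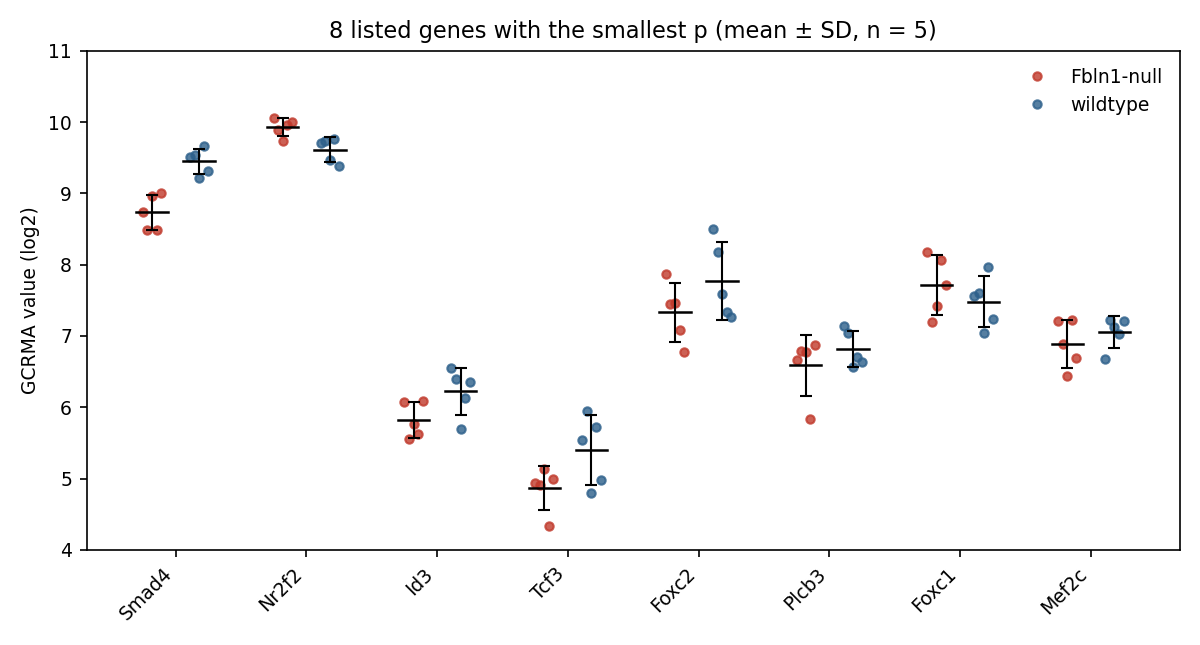
Log2 GCRMA values on each array of the 8 listed genes with the smallest limma p, Fbln1-null (red) left of wildtype (blue), with the mean and SD of 5 arrays per genotype. Smad4 is the 1 gene of the 8, which were picked by p from these same values, whose genotypes do not overlap. Of all 5912 genes over the filter 2.88% do not overlap.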

How the data were processed

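Per the labels' protocols, biotin-labelled cRNA was made from total RNA with an Affymetrix kit that primes at the 3' end. The authors deposited log2 expression values. GCRMA is the tool that the submitters' processing notes name, and its version is not given in the sources used here. It models background by probe sequence and pulls dim probe sets to a floor, where fold changes are compressed. Levels are not compared between genes, and brighter and dimmer refer to probe sets of 1 gene. Symbols came from the platform annotation. Of 22690 probe sets 64 controls were left out.

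The genotypes were compared with limma 3.58.1 in R 4.3.3 (lmFit, eBayes), two-sided and with genotype alone in the model. Benjamini-Hochberg adjustment ran over the 9801 kept probe sets. Dim members were read from the fit without a filter. Exact permutation tests used all 252 assignments of 5 and 5 arrays. The fit was tested on simulated data. Littermates are not marked in the labels, and p-values reflect only the spread between the arrays. The text names all members, the listed genes with the 8 smallest p, and 3 genes most correlated with each Dlx gene. Others were named after their values were seen. Members and lists were chosen with earlier results of these data known. Among the alternatives were other scalings, filters, a floor, variance models, array weights, a replicate block, sex, leaving out each array, and another threshold. An actin covariate and an unblocked fit of the block's arrays were added after seeing the data.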

Additional observations from a re-analysis of the deposited data

Results flagged for a closer look

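Single arrays stood apart from the other 4 of their genotype in 9 of 42 groups examined, where chance flags about 1 in 20 and floor values, which barely vary, are flagged easily. Among the members, Dlx6 read 2.62 on null replicate 7 (nearest other null array 2.27) and 2.47 on wildtype replicate 3 (nearest 2.29). Msx1 (1417127_at) read 2.91 on wildtype replicate 2 (nearest 2.70), and Msx2 read 2.84 on the same array (nearest 2.75). Hand1 (1417525_at) read 2.30 on null replicate 5 and 2.32 on wildtype replicate 4 (nearest 2.29 in both). All 6 values are under the filter. Over the filter, null replicate 7 was low for Plcb3 (5.83, nearest 6.66) and for Tcf3 (4.33, nearest 4.91). On the dimmer Fbln1 probe set the same array read 2.88, against 2.40 on the nearest null array.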

How the results depend on the processing

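Under every alternative run, 0 member probe sets passed, including 0 of 11 without a filter. Dlx2 kept its direction under all 22, at 0.08 to 0.42, but not all of these could turn it. Settings that changed only the filter, the floor or the variance model returned the reported 0.27. The sex covariate gave the same value as leaving out wildtype replicate 4, and the replicate block the same as its arrays unblocked. Dlx1 turned positive under 8, at 0.031 (quantile normalization), 0.0097 (median scaling), 0.024 (sex covariate, or without wildtype replicate 4), 0.042 (without wildtype replicate 5), 0.11 (without null replicate 7), and 0.10 on the 6 arrays numbered 3, 4 and 5 with or without a replicate block. On those 6 arrays, with or without the block, Foxc2 was 0.20 and Plcb3 0.10. Same-numbered arrays had deviations correlated at -0.19, -0.34 and 0.16. Whether the numbers pair the arrays cannot be told from these values, which were not set against those of other pairs. The count of all probe sets past the threshold, 2 as reported, was 1 without a filter, 34 with a log2 6 filter or array weights, 8 with trend and robust variance, 46 at an adjusted p of 0.1, and 0 with the sex or actin covariate, without wildtype replicates 1 and 2, or with the replicate block or its 6 arrays unblocked. It was 0 to 7 with 1 array left out. Of the wider list, 1 gene, Smad4, passed with a log2 6 filter, with array weights or at an adjusted p of 0.1, and 0 with any 1 array left out. The cause was not tested. Signal over background limits the 9 dim member probe sets, where a fall or a small change is not detectable.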
